A study of Mus musculus with 24 samples.

Results

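The genes described here are 8 genes of cholesterol synthesis (Hmgcs1, Idi1, Fdft1, Sqle, Lss, Cyp51, Dhcr7 and Insig1), taken by symbol from a table of 24058 gene symbols counted in mouse hippocampus. Of these symbols 16118 had enough counts to be tested, and all 8 genes were among them. Bulk RNA sequencing covered 24 libraries in 6 groups. All mice carried the P301S tau transgene of the PS19 line, controls included, which in that line is driven by the mouse prion promoter. Titles that begin with LG72 covered 5 R47H-TREM2 females and 3 Trem2+/+ females, and 5 R47H-TREM2 males and 2 Trem2+/+ males. The prefix LG73 marks the titles of 9 more females, 6 with WT-TREM2 and 3 Trem2+/+. R47H-TREM2 stands for the genotype label P301S+;hTREM2-R47H/+, WT-TREM2 for P301S+;hTREM2-WT/+ and Trem2+/+ for P301S+;msTrem2+/+. TREM2 is a lipid-binding receptor of microglia, and its R47H form is a risk allele for Alzheimer's disease. Neither the age of the mice nor the meaning of the title prefixes is stated. The labels do not say whether libraries came from separate animals, and p-values therefore measure only library-to-library spread, which may be technical. R47H-TREM2 and WT-TREM2 never shared a prefix.

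The brain makes nearly all of its own cholesterol, because lipoproteins of the blood do not cross the blood-brain barrier. Acetyl groups are built up to isoprenoids, then to squalene, which is closed to lanosterol and trimmed to cholesterol. When sterols run low in the endoplasmic reticulum, the carrier SCAP takes the transcription factor SREBP2 to the Golgi for cleavage, and the freed factor switches on the enzymes of this pathway together. INSIG1 holds the complex back in the endoplasmic reticulum, and its own gene is a target of the same factor, so Insig1 is a regulator among these genes and the other 7 encode enzymes. In the adult brain astrocytes supply much of the cholesterol and pass it on with apolipoprotein E, and oligodendrocytes use large amounts for myelin.

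Promoters of 4 of these genes are shown: both that held the sterol element described next, that of the regulator Insig1, and that of Lss, whose level followed the other genes least across libraries. Each window holds 250 bases before the RefSeq transcript start and the first 50 bases from it. The RefSeq table (build GRCm38.p6) had an entry for 6 of the 8 genes. Capitals mark 4 motifs, searched on both strands. These are the sterol element TCACCNCA, the NF-Y box CCAAT, the E-box CACGTG and the GC box GGGCGG, where N is any base. The motifs were picked with these sequences in view. None of the 4 motifs overlapped another in these sequences.
Hmgcs1, chr13:119690101-119690400, plus strand: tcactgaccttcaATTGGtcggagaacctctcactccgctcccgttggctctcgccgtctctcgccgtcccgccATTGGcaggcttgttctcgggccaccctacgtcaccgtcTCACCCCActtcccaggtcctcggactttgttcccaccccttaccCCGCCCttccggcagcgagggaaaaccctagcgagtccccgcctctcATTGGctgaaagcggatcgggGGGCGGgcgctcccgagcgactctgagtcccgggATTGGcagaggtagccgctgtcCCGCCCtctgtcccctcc
Cyp51, chr5:4104648-4104947, minus strand: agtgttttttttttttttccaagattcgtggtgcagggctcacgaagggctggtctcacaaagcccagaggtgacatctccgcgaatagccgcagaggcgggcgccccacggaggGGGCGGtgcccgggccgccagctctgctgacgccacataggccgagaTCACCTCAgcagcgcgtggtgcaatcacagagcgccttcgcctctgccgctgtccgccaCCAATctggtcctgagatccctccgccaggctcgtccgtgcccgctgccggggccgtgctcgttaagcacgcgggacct
Insig1, chr5:28071162-28071461, plus strand: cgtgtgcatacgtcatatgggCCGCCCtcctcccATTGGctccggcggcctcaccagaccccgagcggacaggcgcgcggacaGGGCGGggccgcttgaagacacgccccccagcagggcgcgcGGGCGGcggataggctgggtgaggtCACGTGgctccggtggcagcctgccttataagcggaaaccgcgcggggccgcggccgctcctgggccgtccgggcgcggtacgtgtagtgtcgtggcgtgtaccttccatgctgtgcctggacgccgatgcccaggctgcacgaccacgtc
Lss, chr10:76531355-76531654, plus strand: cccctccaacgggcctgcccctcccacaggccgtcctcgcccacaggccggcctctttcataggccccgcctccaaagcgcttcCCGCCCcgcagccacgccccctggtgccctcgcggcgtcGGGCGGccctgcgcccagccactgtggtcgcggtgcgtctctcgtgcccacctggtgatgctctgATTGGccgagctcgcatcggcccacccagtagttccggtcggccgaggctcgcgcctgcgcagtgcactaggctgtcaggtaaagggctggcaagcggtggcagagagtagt
Hmgcs1 held the sterol element as TCACCCCA, beginning at −137 relative to the transcript start, with 4 NF-Y boxes and 3 GC boxes. Cyp51 held it as TCACCTCA at −88, with an NF-Y box at −29. Insig1 held an E-box at −101, an NF-Y box at −216 and 3 GC boxes, and these letters of the sterol element were not in its window. Lss held 1 NF-Y box at −62 and 2 GC boxes. The windows not shown, 1 of Idi1 and 3 of Dhcr7, did not hold these letters either, so that 2 of the 6 genes held the element. Of 32841 promoters of this length in the table, 4.42% held TCACCNCA, 37.4% CCAAT, 7.15% CACGTG and 35.7% GGGCGG. A match is a run of letters and was not tested for binding.

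Depth ran from 13261478 to 23807390 counts per library. Trem2 was at 18.1 ± 8.94 CPM (counts scaled to a common library size) in R47H-TREM2 females and 16.5 ± 10.3 in their controls, at 11.5 ± 3.20 and 24.1 ± 4.59 in R47H-TREM2 and control males, and at 12.4 ± 11.1 and 11.9 ± 4.99 in WT-TREM2 females and their controls (SD). It is not stated whether reads of the human allele count under Trem2, so these values do not check the genotype labels. Markers of hippocampal subfields summed to between 86.5 CPM, in R47H-TREM2 female 1, and 369 CPM, and were thus present in all 24 libraries. Libraries stood apart in transcripts of other tissues. Prl, a pituitary hormone, was at 979 CPM in R47H-TREM2 female 5 and 58.7 in Trem2+/+ female 3 of LG73. Omp, of olfactory neurons, was at 419.7 in Trem2+/+ female 1 of LG72, and Adora2a, of striatal neurons, at 53.6 in Trem2+/+ female 3 of LG72 and at 57.8 and 33.5 in WT-TREM2 females 2 and 5. The medians of the 8 genes and the correlations are also given without these 6 libraries. That leaves 1 Trem2+/+ female of LG72, female 2, which was among the highest 6 libraries for all 8 genes. Alb, of liver, was above 30 CPM in 14 libraries, spread over all groups.

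The 8 genes differed widely in level. Scaled to the length of the longest coding transcript, Hmgcs1 was highest at 70.7 ± 19.4 CPM per kilobase, followed by Insig1 at 29.6 ± 8.51, Sqle at 24.8 ± 7.22 and Fdft1 at 22.5 ± 5.77 (SD over 24 libraries). Cyp51 was at 15.2 ± 3.68, Dhcr7 at 10.04 ± 2.25, Idi1 at 3.04 ± 1.14 and Lss at 2.32 ± 0.595 CPM per kilobase. Hmgcs1 was above Insig1, Cyp51 above Dhcr7 and Dhcr7 above Idi1 in all 24 libraries, and Fdft1 above Cyp51 in 23. The other neighbours changed places in some libraries: Insig1 was above Sqle in 18 of 24, Sqle above Fdft1 in 19 and Idi1 above Lss in 17. Between the lowest and the highest library the unscaled level differed 2.70-fold for Cyp51 and 5.19-fold for Idi1, with the other 6 genes between. The same libraries recurred at the ends. R47H-TREM2 female 1 was the lowest of 24 for Fdft1, Sqle, Lss, Dhcr7 and Insig1, and R47H-TREM2 females 1 and 2 were each among the lowest 6 for all 8 genes. Trem2+/+ female 2 of LG72 was among the highest 6 for all 8.

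**Figure D1:**
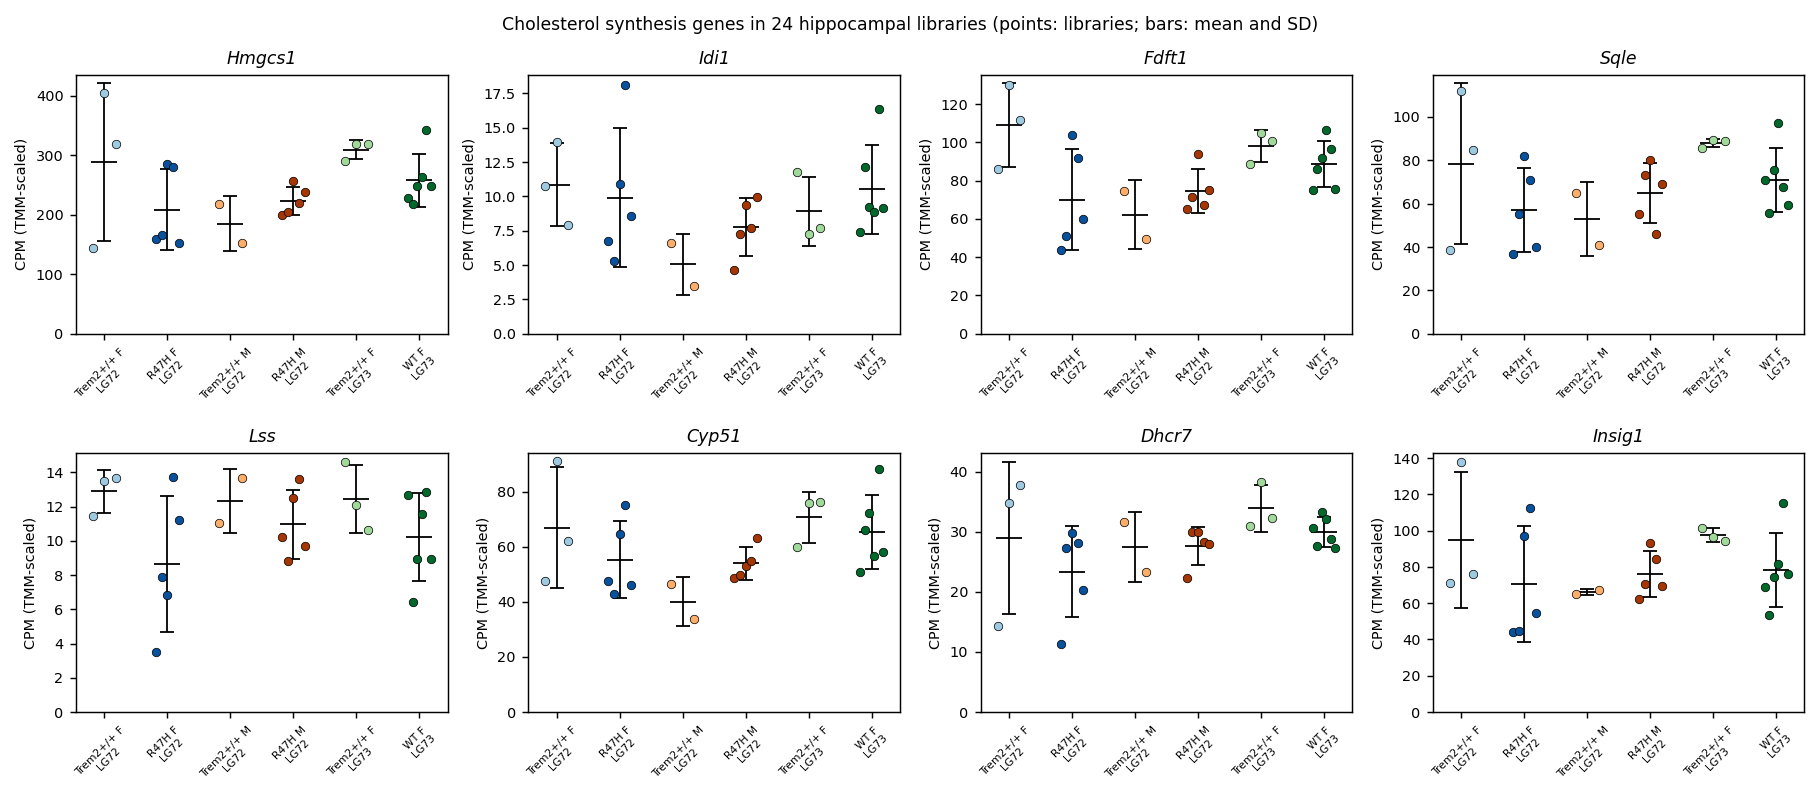
Level of each of the 8 genes (CPM, linear axis from 0) in the 6 groups. Each point is a library, and bars give the mean and SD. R47H-TREM2 females of LG72 spread widely, with Hmgcs1 between 152 and 285 CPM (SD 67.6). Their 3 controls spread more widely, between 143.6 and 404 CPM (SD 133), while the 5 R47H-TREM2 males lay between 199 and 256 CPM.

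The first comparison asked how these genes stood in R47H-TREM2 females of LG72 against Trem2+/+ females of the same prefix. All 8 had a lower mean level in the R47H-TREM2 females, and none passed the test. Fdft1, at 0.641 times the control level (95% interval 0.462 to 0.888), was farthest from 1. At a Benjamini-Hochberg adjusted p under 0.05 in edgeR's quasi-likelihood test, 0 of 8 were called, where 0% of all 16118 genes were called. At an unadjusted p under 0.05 there was 1 of 8, Fdft1, and 14.03% of all genes (2262). DESeq2 called 187 genes here and limma-voom 0, with 0 of the 8 in either. The median log2 fold change of the 8 was −0.44, against 0.00 over all genes, of which 49.5% were lower. The R47H-TREM2 females did not form a uniform group for these genes: females 1, 2 and 5 were low, and females 3 and 4 lay among the controls for most of the 8.

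Hmgcs1 (chromosome 13, 119690379 to 119708260, plus strand; build GRCm38 here and below) encodes the synthase that makes HMG-CoA, an early intermediate of the pathway. In R47H-TREM2 females 1 to 5 it measured 159.9, 167, 285, 279.9 and 152 CPM, and in Trem2+/+ females 1 to 3 143.6, 404 and 319 CPM. The groups overlapped fully on the low side, since control female 1 was below all 5 R47H-TREM2 females. The log2 fold change was −0.47 (SE 0.25, edgeR adjusted p = 0.404). Idi1 (chromosome 13, 8885501 to 8892451, plus strand) encodes the isomerase that makes the activated isoprene unit ready for chain growth. It measured 6.75, 5.28, 10.9, 18.1 and 8.54 CPM in R47H-TREM2 females and 10.7, 13.97 and 7.90 CPM in controls. Female 4 was above all controls and females 1 and 2 below all of them, and the log2 fold change was −0.13 (SE 0.34, edgeR adjusted p = 0.880).

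Fdft1 (chromosome 14, 63145150 to 63179578, minus strand) encodes squalene synthase, the first enzyme committed to sterols. Its levels were 43.5, 50.9, 104, 91.6 and 59.9 CPM in R47H-TREM2 females and 86.2, 129.7 and 112 CPM in controls. Females 1, 2 and 5 were below all 3 controls, and females 3 and 4 were above the lowest control, so the groups overlapped. The log2 fold change was −0.64 (SE 0.23, 95% interval −1.11 to −0.17, edgeR adjusted p = 0.241). Fdft1 shares 774 exon bases with Ctsb on the other strand, a cathepsin gene at a mean of 721 CPM. With the strand setting of the counting not given in the sources used here, reads of the shared part cannot be told apart. The log2 fold change of Ctsb was 0.15 (edgeR adjusted p = 0.775), in the other direction from that of Fdft1. Sqle (chromosome 15, 59315077 to 59331192, plus strand) encodes squalene epoxidase, a second point of control in the pathway. It measured 36.7, 55.1, 81.9, 70.9 and 40.0 CPM against 38.5, 112 and 84.7 CPM in controls, with control 1 again among the lowest (log2 fold change −0.46, SE 0.28, edgeR adjusted p = 0.455).

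Lss (chromosome 10, 76531588 to 76557138, plus strand) encodes the cyclase that closes squalene epoxide to lanosterol. It was at 3.52, 7.92, 6.81, 13.7 and 11.2 CPM in R47H-TREM2 females and at 11.4, 13.5 and 13.7 CPM in controls. Here 4 of 5 R47H-TREM2 females were below all 3 controls, and female 4 was level with the highest. The log2 fold change was −0.58 (SE 0.29, 95% interval −1.18 to 0.03, edgeR adjusted p = 0.377). Cyp51 (chromosome 5, 4081145 to 4104746, minus strand) encodes the demethylase that acts on lanosterol. It measured 47.5, 42.8, 64.6, 75.3 and 46.0 CPM against 47.6, 91.0 and 62.1 CPM (log2 fold change −0.28, SE 0.22, edgeR adjusted p = 0.560). Dhcr7 (chromosome 7, 143823145 to 143848410, plus strand) encodes a reductase of the last steps. It was at 11.4, 27.2, 29.8, 28.1 and 20.3 CPM against 14.4, 34.7 and 37.7 CPM in controls (log2 fold change −0.31, SE 0.26, edgeR adjusted p = 0.587). R47H-TREM2 female 1 and control female 1 were the lowest libraries of their groups for Dhcr7.

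Insig1, the regulator (chromosome 5, 28071363 to 28078662, plus strand), measured 44.4, 44.8, 97.0, 112 and 54.7 CPM in R47H-TREM2 females and 71.0, 138 and 75.9 CPM in controls. Its split was the same as for Fdft1, with females 1, 2 and 5 below all controls and females 3 and 4 within their range (log2 fold change −0.43, SE 0.28, edgeR adjusted p = 0.486). None of the 8 genes separated the groups without overlap, as 2.41% of all genes did in the lower and 3.59% in the higher direction. The size of the difference rested on single libraries. The median log2 fold change was −0.17 without control female 2 and −0.68 without control female 1. Without the libraries high in Prl, Omp or Adora2a it was −0.80, with 4 libraries against 1 control, female 2. Among libraries with Alb above 30 CPM (2 against 2) the median was 0.01, and among the others (3 against 1 control, again female 2) −1.03.

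Markers of brain cell types differed in the same libraries, and in bulk tissue fewer cells of a type and less RNA per cell cannot be told apart. All 7 neuronal markers had a lower mean in R47H-TREM2 females (median log2 fold change −0.40), and all 7 astrocyte, 6 microglial and 8 myelin markers a higher one (0.41, 0.95 and 0.80), with 0 called. In edgeR an unadjusted p under 0.05 was found for 1 of 7 neuronal, 3 of 7 astrocyte, 5 of 6 microglial and 5 of 8 myelin markers. The share over all genes was 14.03%. Neuronal markers summed to 3958 to 6712 CPM in R47H-TREM2 females and 5371 to 7727 in controls, and astrocyte markers to 7165 to 19747 and 4465 to 7902. Myelin markers summed to 8118 to 18797 CPM against 4987 to 6273, and microglial ones to 258 to 777 against 239.9 to 339. None of these 28 markers was at 0 in any library. All 5 choroid plexus markers had a higher mean too (median 1.74), with sums of 348 to 3361 CPM against 58.7 to 593, and all 4 striatal markers a lower one (−1.52), with 0 called. The 6 liver and 3 pituitary markers were higher in mean as well (medians 0.39 and 4.70), and the 2 olfactory markers lower (−6.70), with 0 called. The liver sum did not follow Alb in all libraries. It was 567 CPM in R47H-TREM2 female 1, with Alb at 1.72 CPM, and 231 CPM in control female 1, with Alb at 70.4 CPM. Pituitary markers summed to 1060 CPM in R47H-TREM2 female 5, and olfactory ones to 539 CPM in control female 1. The highest astrocyte sum and the lowest neuronal sum of all 24 libraries were both in R47H-TREM2 female 1, the library lowest for 5 of the 8 genes. Their part in the result was not tested.

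The second comparison asked the same of males of LG72, with 5 R47H-TREM2 libraries and 2 controls. Of the 8 genes 7 had a higher fitted level in R47H-TREM2 males, or 6 with size factors of DESeq2, where Dhcr7 stood at −0.01 on the log2 scale. None passed the test (0 of 8), where 0% of all genes were called. At an unadjusted p under 0.05 there were 0 of 8, and 6.17% of all genes. DESeq2 called 3 genes and limma-voom 0, none of the 8 among them. The median log2 fold change was 0.27, against 0.03 over all genes. Hmgcs1 measured 199, 205, 256, 220.3 and 238 CPM in R47H-TREM2 males and 218 and 153 CPM in controls (log2 fold change 0.27, SE 0.30, edgeR adjusted p = 0.848). Fdft1 was at 65.1, 71.6, 93.98, 67.1 and 75.3 CPM against 74.8 and 49.5 CPM (0.26, SE 0.27, edgeR adjusted p = 0.837). In both genes control male 2 was below all 5 R47H-TREM2 males and control male 1 lay among them.

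Cyp51 was the only 1 of the 8 whose groups did not overlap. It was at 48.5, 49.8, 53.04, 54.8 and 63.3 CPM in R47H-TREM2 males and at 46.4 and 33.7 CPM in controls (log2 fold change 0.43, SE 0.26, edgeR adjusted p = 0.779). Of all genes, 6.38% lay wholly higher in R47H-TREM2 males and 4.95% wholly lower, so 1 of 8 is near that background. Cyp51 shares 166 exon bases with Akap9 on the other strand, which had a log2 fold change of −0.65 (edgeR adjusted p = 0.779). Idi1 had the largest difference of the 8, from 4.64, 7.23, 9.41, 7.68 and 9.97 CPM against 6.64 and 3.49 CPM (0.62, SE 0.41, edgeR adjusted p = 0.787). Sqle and Insig1 stood at 0.29 and 0.20, Dhcr7 at 0.01 and Lss at −0.17 on the log2 scale, with adjusted p-values from 0.852 to 0.994 in edgeR. The median was 0.02 without control male 2 and 0.58 without control male 1, each with 1 control left, so that the lone control was assumed to vary like the other groups. Microglial markers summed to 305 to 648 CPM in R47H-TREM2 males and 553 to 567.9 in controls, and astrocyte markers to 5192 to 10051 and 7711 to 11613. All 5 choroid plexus markers had a higher mean in R47H-TREM2 males (median log2 fold change 2.67, 3 with an unadjusted p under 0.05, 0 called in edgeR), with sums of 92.7 to 2467 CPM against 112 to 153.6. All 8 myelin markers had a higher mean as well (median 0.44, 0 called), with sums of 5502 to 15376 against 4527 to 6524 CPM. The part of these markers in the result was not tested. The median of the 8 genes was 0.26 without the libraries high in Prl, Omp or Adora2a.

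The third comparison set WT-TREM2 females of LG73 against Trem2+/+ females of that prefix, 6 against 3. Of the 8 genes 7 had a lower mean with WT-TREM2 and 0 passed in edgeR, as 0% of all genes did. At an unadjusted p under 0.05 there were 0 of 8 and 3.91% of all genes, and neither DESeq2 nor limma-voom called a gene. The median log2 fold change was −0.22, against 0.04 over all genes. Hmgcs1 ran from 217 to 342 CPM with a median of 248 in WT-TREM2 females, and measured 291, 319.7 and 318 CPM in controls. Here 5 of 6 WT-TREM2 libraries were below all 3 controls and female 5 was above all of them (log2 fold change −0.26, SE 0.25, edgeR adjusted p = 0.860). Insig1 ran from 53.6 to 115 CPM with a median of 75.3, against 102, 96.7 and 94.6 CPM, with the same 5 below and the same library above (−0.32, SE 0.27, edgeR adjusted p = 0.860). Sqle ran from 55.8 to 97.2 CPM with a median of 69.3, against 85.9, 89.4 and 88.8 CPM (−0.31, SE 0.27, edgeR adjusted p = 0.860). In Sqle the library above all controls was female 4, not female 5.

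Fdft1 ran from 75.1 to 106.4 CPM with a median of 89.0 in WT-TREM2 females, against 88.5, 105 and 100.5 CPM, a log2 fold change of −0.14 (SE 0.22, edgeR adjusted p = 0.892). Lss, Dhcr7 and Cyp51 had log2 fold changes of −0.28, −0.18 and −0.11, and Idi1 stood alone in the higher direction at 0.23 (edgeR adjusted p-values from 0.860 to 0.911). No gene of the 8 separated the groups, as 1.45% of all genes did in the lower and 1.37% in the higher direction. The 3 controls of LG73 were close together for most of the 8, with Sqle at 88.01 ± 1.88 CPM, where the 3 controls of LG72 stood at 78.4 ± 37.2 CPM (SD, n = 3 in each). The median was −0.21 without the libraries high in Prl, Omp or Adora2a. Markers of other tissues also stood apart here. All 5 choroid plexus markers had a lower mean with WT-TREM2 (median −2.25, all 5 with an unadjusted p under 0.05, 0 called in edgeR), with sums of 44.0 to 616 CPM against 392 to 1629. All 4 striatal markers had a higher mean (median 1.24, 0 called), with sums of 95.8 to 607 CPM against 94.5 to 146. Their part in the result was not tested.

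**Figure D2:**
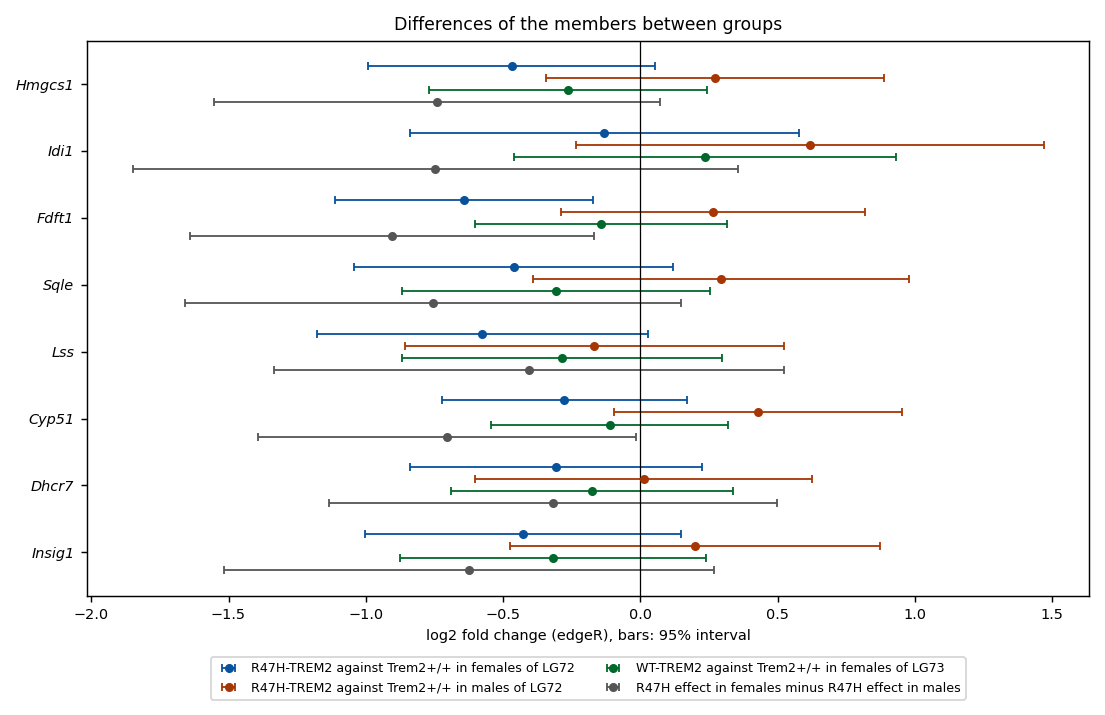
Log2 fold change of each gene with its 95% interval in edgeR for the 3 genotype comparisons and for the difference of the R47H effect between females and males. Points for R47H-TREM2 females lie below 0 and 7 of 8 points for R47H-TREM2 males above 0. The intervals include 0 except for Fdft1 in females (−1.11 to −0.17) and, in the difference between the sexes, Fdft1 (−1.64 to −0.17) and Cyp51 (−1.39 to −0.02). None passed after adjustment over all genes.

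Effects were then compared directly. The R47H effect in females minus that in males was negative for all 8 genes, from −0.32 for Dhcr7 to −0.91 for Fdft1, with a median of −0.72 against −0.01 over all genes. Fdft1 (SE 0.36, unadjusted p = 0.0178, edgeR adjusted p = 0.833) and Cyp51 (−0.70, SE 0.33, unadjusted p = 0.0452, edgeR adjusted p = 0.923) had unadjusted p-values under 0.05, as did 5.34% of all genes. After adjustment 0 of 8 passed, and 0% of all genes. Hmgcs1, Sqle and Idi1 stood at −0.74, −0.76 and −0.75. This median was −0.44 without control female 2 and −1.03 without control male 1, which left 1 control male. Without the libraries high in Prl, Omp or Adora2a it was −1.08, with control female 2 the only control female left. It was negative in each of these fits. The R47H effect minus the WT effect in females was negative for all 8 genes too, from −0.11 for Insig1 to −0.50 for Fdft1 (SE 0.32, edgeR adjusted p = 0.678), with a median of −0.18 against −0.04 over all genes. None was called in edgeR, as with 0% of all genes (at an unadjusted p under 0.05, 0 of 8 and 9.05%). Without control female 2 of LG72 this median was 0.06. Without the libraries high in Prl, Omp or Adora2a, where that female was the only LG72 control left, it was −0.48. Both differences contain the same R47H-TREM2 females and their controls. In the second of them the prefix and the allele cannot be told apart.

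Sex and prefix were compared without regard to the human alleles. In LG72, with both genotypes weighted equally, 6 of 8 genes had a lower mean in males (median log2 difference −0.24, against −0.02 over all genes), and 0 passed, where 0.0558% of all genes were called, 0.0186% lower and 0.0372% higher in males. Idi1 was at −0.72 (SE 0.27, unadjusted p = 0.0135, edgeR adjusted p = 0.335) and Cyp51 at −0.39 (SE 0.17, unadjusted p = 0.0291, edgeR adjusted p = 0.390), while Lss and Dhcr7 stood at 0.14 and 0.08. This difference rested on single libraries: the median was −0.065 without control female 2 and −0.40 without control male 1, which left 1 control male. Without the libraries high in Prl, Omp or Adora2a Dhcr7 turned and the median was −0.49, with control female 2 the only control female of LG72 left. At an unadjusted p under 0.05 there were 2 of 8, Idi1 and Cyp51, and 11.5% of all genes (1850). Controls of LG72 and LG73, both Trem2+/+ females, differed by a median of −0.06, which turned to 0.05 with limma-voom, from −0.23 for Dhcr7 to 0.28 for Idi1. Without the libraries high in Prl, Omp or Adora2a it was 0.40, a value that rests on 1 control of LG72, female 2, which was the highest of 24 for 5 of the 8 genes, against 2 of LG73. None of the 8 was called in edgeR, as 0% of all genes (at an unadjusted p under 0.05, 0 of 8 and 4.29%), and none separated the 2 control groups, where 5.37% and 4.09% of all genes lay wholly lower and higher in LG72.

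The rest of the pathway was described by lists of enzymes, regulators and neighbouring lipid genes, with 0 genes called in any comparison. Of 14 other enzymes of cholesterol synthesis, 11 had a lower mean in R47H-TREM2 females (median log2 fold change −0.20). Acat2, at the entry of the pathway, stood at 29.1 against 38.4 CPM (−0.40, edgeR adjusted p = 0.360), and the sterol isomerase gene Ebp at 16.3 against 12.5 CPM (0.39, edgeR adjusted p = 0.398). In males 11 of the 14 had a higher mean with R47H-TREM2 (median 0.48), led by Fdps, Ebp, Sc5d and Acat2 with 0.64, 0.55, 0.41 and 0.48 (edgeR adjusted p = 0.779 for each). In WT-TREM2 females 8 of 14 had a higher mean (median 0.01), or 6 of 14 with size factors of DESeq2 (median −0.02).

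Among 10 genes of SREBP regulation, 7 had a lower mean in R47H-TREM2 females (median −0.27). Srebf2, which encodes SREBP2 itself, was at 199.5 against 236 CPM (−0.24, edgeR adjusted p = 0.646), and the protease and carrier genes Mbtps1 and Scap at −0.30 and −0.32. Genes of efflux, esterification and turnover lay the other way, with 9 of 11 higher in mean (median 0.36). Nr1h3, which encodes the sterol-sensing receptor LXR alpha, stood at 8.19 against 3.14 CPM (1.38, edgeR adjusted p = 0.177), and Soat1, which esterifies cholesterol, at 37.8 against 22.3 CPM (0.76, edgeR adjusted p = 0.196). Cyp46a1, the neuronal hydroxylase that clears cholesterol from the brain, was an exception at 90.3 against 148 CPM (−0.71, edgeR adjusted p = 0.243). Of 9 genes of fatty acid synthesis 5 had a higher mean (median 0.19). In males the medians of the regulation, efflux and fatty acid lists were −0.00, 0.00 and −0.11, that of the efflux list moving to −0.02 with size factors of DESeq2, and in WT-TREM2 females −0.10, 0.15 and −0.04.

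**Figure D3:**
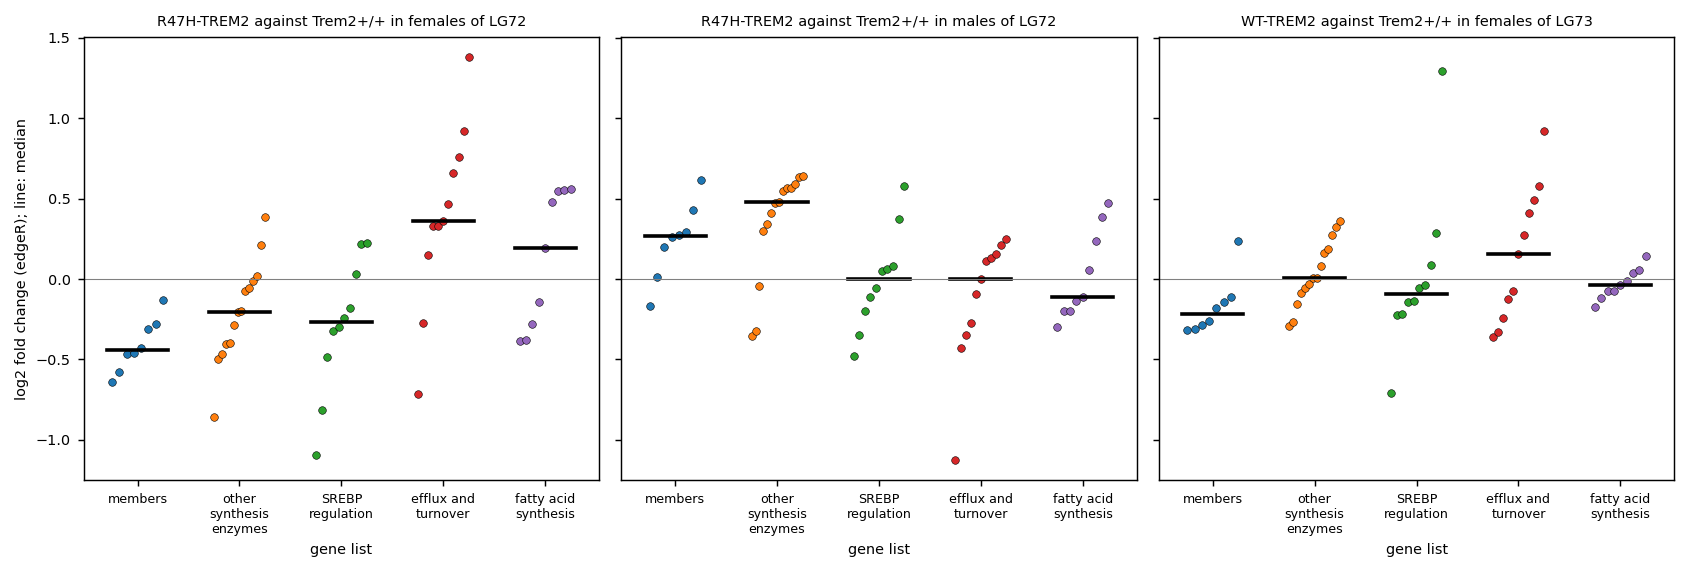
Log2 fold change of each gene in 5 lists for the 3 genotype comparisons, with points for genes and bars for medians. The 8 genes have medians of −0.44, 0.27 and −0.22, and the other enzymes of −0.20, 0.48 and 0.01, in R47H-TREM2 females, R47H-TREM2 males and WT-TREM2 females, with no gene called.

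The 8 genes varied together from library to library within groups. With each group's mean log2 CPM removed, all 28 pairs had a positive Pearson correlation over 24 libraries (0.16 to 0.84, median 0.62), and 15 of 28 passed by Pearson's r at an adjusted p under 0.05 with 100000 permutations within groups. Without the libraries high in Prl, Omp or Adora2a, over 18 libraries, all 28 were positive again (0.24 to 0.95, median 0.67). Here and below, group means over the 18 were taken anew. The lone LG72 control female left thus equalled its own group mean and added nothing to r. Hmgcs1 and Cyp51 had r = 0.84 and Spearman's rho = 0.84 (permutation p = 0.000180 and 0.000200, adjusted over 28 pairs 0.00157 and 0.00280; r = 0.80 without the 2 libraries farthest from the median of the first-named gene). For Hmgcs1 and Fdft1 r was 0.80 and rho 0.88 (permutation p = 0.000230 and 0.0001, adjusted 0.00157 and 0.00280; r = 0.85 without the 2). Sqle and Dhcr7 had r = 0.83 and rho = 0.84 (permutation p = 0.000280 and 0.000310, adjusted 0.00157 and 0.00289; r = 0.75 without the 2). Lss stood apart, with none of its 7 pairs passing and its weakest r of 0.16 with Cyp51 (rho −0.07, permutation p = 0.586 and 0.773, adjusted 0.586 and 0.773; r = −0.15 without the 2). Libraries share depth and tissue makeup as well as these genes. The correlation of each of the 8 with the log2 total count was 0.03 to 0.40, and 0 of 8 passed.

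Against the mean of the other 7, Hmgcs1 ranked 1 of 16111 genes by correlation (r = 0.88), Fdft1 2 (0.87), Insig1 4 (0.84), Cyp51 14 (0.76), Sqle 21 (0.74) and Dhcr7 32 (0.70). Idi1 ranked 374 (0.59) and Lss 1211 (0.42). Over the 18 libraries Cyp51 was lower, at 0.72, and the other 7 higher, Hmgcs1 at 0.93, Fdft1 at 0.91, Insig1 at 0.86, Sqle at 0.75, Idi1 at 0.74, Dhcr7 at 0.73 and Lss at 0.53. Among 16110 genes outside the 8, the 10 most like their mean had r of 0.76 or more, among them Armcx2 (0.83), a symbol deposited as a date (0.81), Msmo1 (0.79), Zdhhc22 (0.79), Stard4 (0.77), Pde2a (0.77), Syt16 (0.76) and Reep6 (0.76). Of these, the methylsterol oxidase gene Msmo1 encodes an enzyme of the pathway, and Stard4 a carrier of sterols. Mvd, which makes isopentenyl diphosphate, ranked 15 (0.75) and Srebf2 26 (0.72). Some enzyme genes of the pathway lay far lower, with Pmvk at 0.22, Lbr at 0.01 and Ebp at −0.12 (0.44, −0.20 and −0.21 over the 18 libraries). Without the libraries high in Prl, Omp or Adora2a, Armcx2 was at 0.75, and Msmo1, Zdhhc22, Stard4, Pde2a, Syt16 and Reep6 were between 0.82 and 0.91, Mvd at 0.92 and Srebf2 at 0.90.

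**Figure D4:**
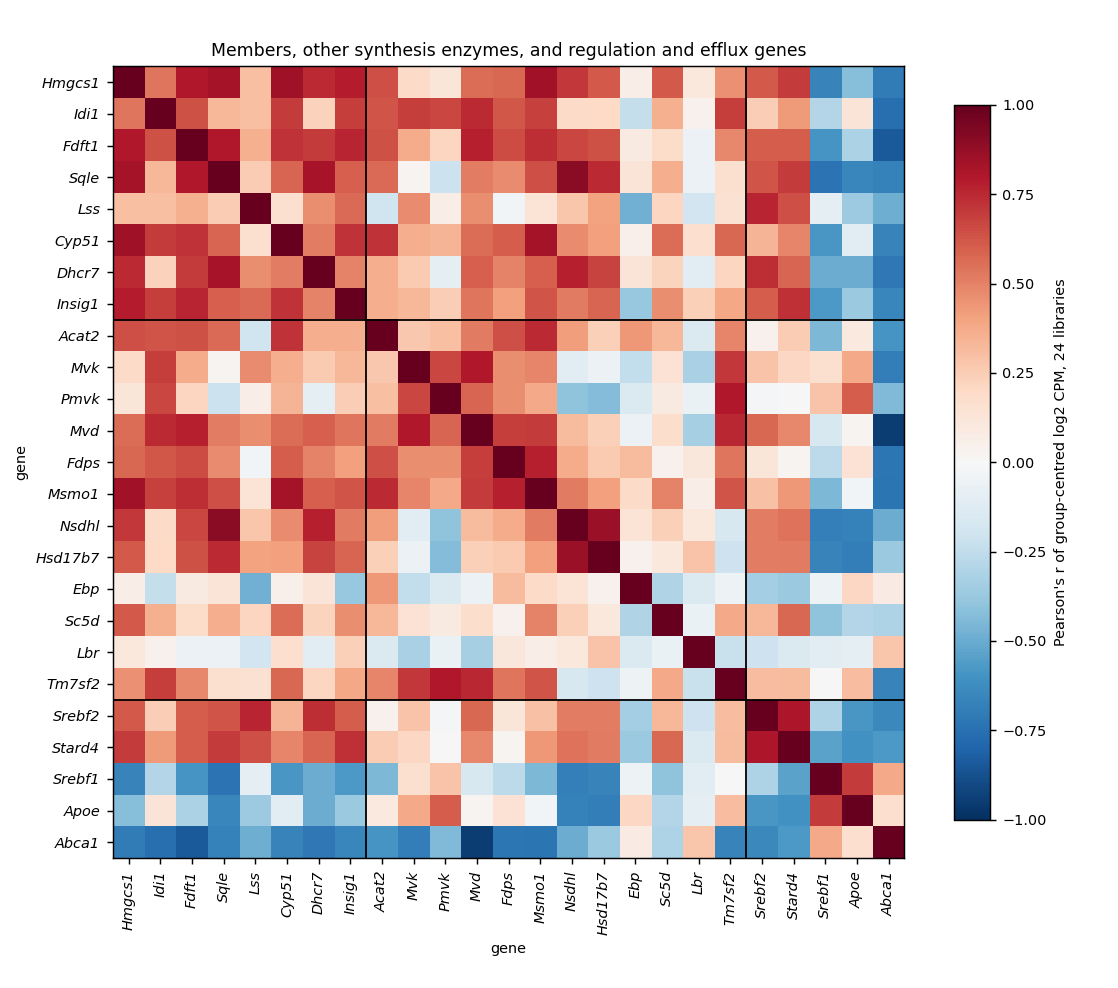
Pearson correlation of log2 CPM, with group means removed, over 24 libraries. Lines part the 8 genes, 12 other enzymes and 5 genes of regulation and efflux. Most of the enzymes correlate positively with each other, Lss less so, while Ebp, Lbr and Pmvk are negative against several. Abca1 lies negative against all 8, from −0.49 for Lss to −0.84 for Fdft1.

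At the other end of the ranking, Slc22a4, a carrier of organic cations, was last of 16110 (r = −0.92). Abca1, the transporter that loads cholesterol onto apolipoproteins, was second to last (−0.87, and −0.93 without the libraries high in Prl, Omp or Adora2a). The rest of the list of efflux, esterification and turnover lay higher, from −0.52 for Npc2 to 0.51 for Cyp46a1. Abca1 was singled out by this ranking, so its values with each of the 8 only describe the same libraries and are given without p-values. They ran from −0.84 for Fdft1 (rho = −0.86; r = −0.76 without the 2 libraries farthest in Abca1) to −0.49 for Lss (rho = −0.25), and for Lss r was −0.01 without the 2, so that value rested on those libraries. They ran from −0.87 for Hmgcs1 to −0.55 for Lss over the 18 libraries. Abca1 measured 140.3 CPM in R47H-TREM2 female 1, where 5 of the 8 were lowest, 130.1 in control male 2, where Idi1 and Cyp51 were lowest, and 22.3 in R47H-TREM2 female 4, where Idi1 was highest.

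The difference of Abca1 between genotypes was 0.92 in females (SE 0.46, edgeR adjusted p = 0.371) and −1.13 in males (SE 0.49, edgeR adjusted p = 0.779) on the log2 scale. These directions were opposite to those of Fdft1 in both sexes, and the difference between the sexes did not pass (2.05, SE 0.67, edgeR adjusted p = 0.696). Gfap, the filament gene that is high in reactive astrocytes, ranked 11 from the bottom (r = −0.79), and Srebf1, which encodes the SREBP of fatty acid synthesis, was at −0.62. The other astrocyte markers ran from −0.60 for Aqp4 to −0.05 for Aldh1l1. Neuronal markers were split, from −0.33 for Gad2 and −0.09 for Gad1 to 0.64 for Tubb3. Over the 18 libraries they ran from −0.79 for Gad2 to 0.78 for Slc17a7. Of the 8 genes 2, Sqle and Dhcr7, passed by Pearson's r with the mean of the astrocyte markers over a family of 104 relations with 12 marker lists and depth (r from −0.72 for Sqle to −0.27 for Cyp51), and 1 passed with neuronal markers, Sqle (r = 0.77, rho = 0.74, permutation p = 0.000350 and 0.000930, adjusted 0.0153 and 0.0392; r = 0.73 without the 2 libraries farthest in the markers). With microglial markers r was −0.68 to −0.24 and with myelin markers −0.19 to 0.24, and 0 of 8 passed with either by Pearson's r. By rank Insig1 passed with microglial markers (r = −0.63, rho = −0.67, permutation p = 0.00352 and 0.00159, adjusted 0.0645 and 0.0413; r = −0.46 without the 2 libraries farthest in the markers). Over the 18 libraries r was −0.83 to −0.45 with astrocyte, 0.076 to 0.77 with neuronal, −0.81 to −0.48 with microglial and −0.57 to −0.080 with myelin markers. The mean of the liver markers was positive with all 8 genes over those 18 libraries (0.32 to 0.81), and that of hippocampal subfield markers with 7 of 8 (−0.04 to 0.76). Over all 24 libraries r was −0.08 to 0.54 and −0.03 to 0.42 for these lists, and 0 of 8 passed with either by Pearson's r. Within the liver list Trf went the other way, at r = −0.41 with the mean of the 8 over the 18 libraries. The other liver markers ran from 0.47 for Ahsg to 0.68 for Alb there. The part of cell or tissue makeup in the shared variation was not tested.

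**Figure D5:**
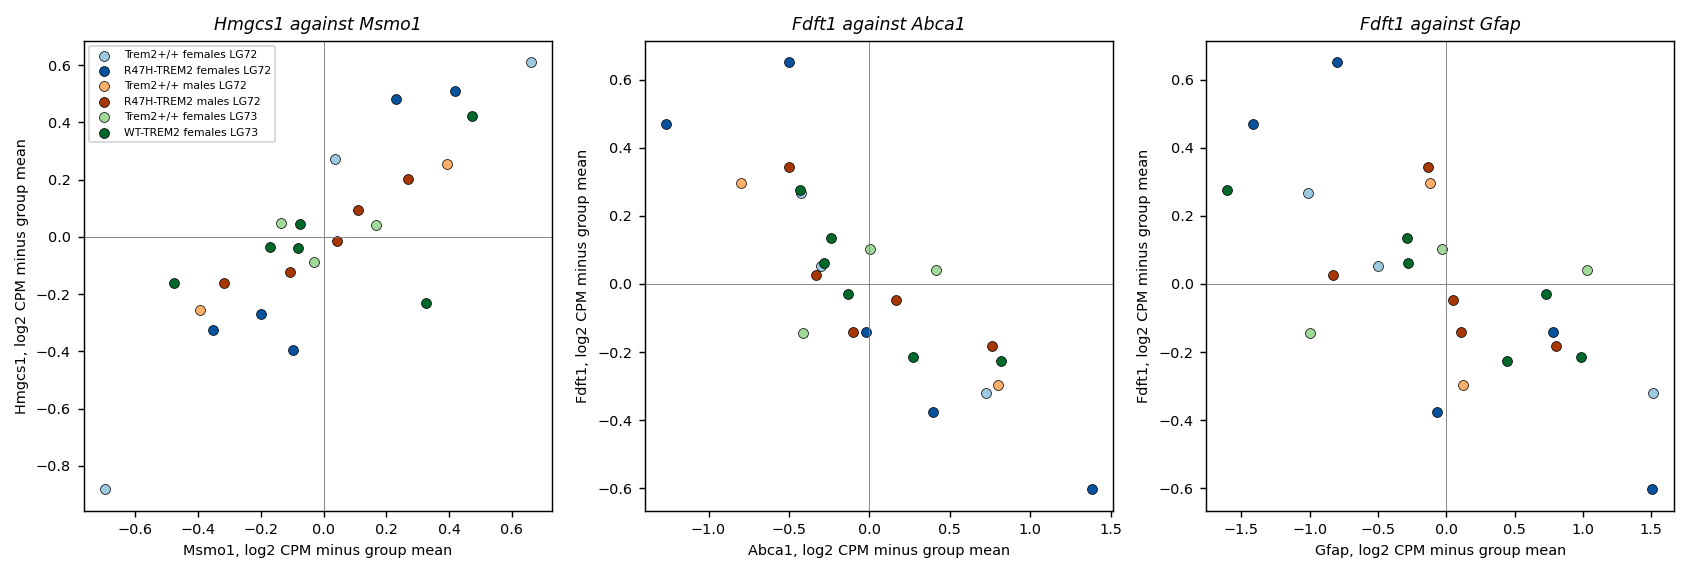
Log2 CPM with the group mean removed, for Hmgcs1 against Msmo1, Fdft1 against Abca1 and Fdft1 against Gfap, with 1 point per library and colours for the 6 groups. Hmgcs1 and Msmo1 lie along a rising line (r = 0.84, rho = 0.79; r = 0.74 without the 2 libraries farthest in Msmo1), and Fdft1 lies lower where Abca1 (r = −0.84) and Gfap are higher (for Gfap r = −0.68, rho = −0.69; r = −0.65 without the 2 farthest in Gfap). Msmo1, Abca1 and Gfap were chosen from the ranking, so these values are descriptions, given without p-values.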

How the data were processed

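The libraries came from hippocampal RNA of mice of the PS19 line, selected with oligo(dT) per the labels' protocols. The authors deposited whole-number read counts per gene symbol, and the submitters' processing notes name genome build GRCm38. Which aligner, counting program and strand setting were used is not stated. A further 18 columns matched no sample and stayed out.

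The 8 genes, the lists and the doubted libraries were chosen with earlier results of these data known. The quasi-likelihood test of edgeR 4.0.16 (R 4.3.3) was run on counts after filterByExpr and TMM scaling, with 1 mean per group for 6 groups and 24 libraries. Adjustment (Benjamini-Hochberg) covered 16118 genes, and an adjusted p under 0.05 counted as a call. The biological coefficient of variation was 0.318. Each SE is the log2 fold change over the root of F. Correlations used log2 CPM (prior count 2) and 100000 two-sided permutations within groups, whose smallest p is 1e-05. No library duplicated another: chi-square over its degrees of freedom was 11.1 or more within groups. Gene positions and lengths are those of GENCODE M21.

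Genes outside the 8 were named by rule: up to 4 per list with the smallest p, and the 10 most like the mean of the 8. Srebf2, Mvd, Abca1, Slc22a4, Gfap, Srebf1, Npc2, Lbr, Pmvk, Aqp4, Aldh1l1, Gad1, Gad2, Tubb3, Slc17a7, Trf, Ahsg, Ctsb, Akap9 and the tissue transcripts were picked with their values in view. The settings also tried were DESeq2 size factors, the DESeq2 1.42.0 Wald test, limma-voom with weights (limma 3.58.1), no filter, only the compared groups, each library left out, a covariate for Alb above 30 CPM, and leaving out 6 libraries with more than 50 CPM of Prl or Omp or more than 30 of Adora2a. Some genes that the rule names are not reported here. Correlations without those 6 libraries were added after seeing the data. The fit was tested on simulated data.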

Additional observations from a re-analysis of the deposited data

Results flagged for a closer look

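Of 24 groups of values tested for a library far from the others, 2 held one, and chance alone gives about 1 in 20. Hmgcs1 was at 342 CPM in WT-TREM2 female 5 of LG73, where the other 5 libraries lay between 217 and 263 CPM. This library also had Adora2a at 33.5 CPM. Dhcr7 was at 22.3 CPM in R47H-TREM2 male 1 of LG72, where the other 4 lay between 28.0 and 29.95 CPM.

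Hmgcs1 and Fdft1 were each picked out because all 5 R47H-TREM2 females were below the mean of their controls and all 5 R47H-TREM2 males above the mean of theirs. The difference between these effects was −0.74 for Hmgcs1 (SE 0.39, edgeR adjusted p = 0.990) and −0.91 for Fdft1 (SE 0.36, edgeR adjusted p = 0.833) on the log2 scale, and it passed for neither. The control means rest on 3 and 2 libraries.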

How the results depend on the processing

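Under every alternative run, 0 of the 8 genes were called in each of the 7 comparisons, and the lowest adjusted p of any of them was 0.122 in R47H-TREM2 females, 0.130 between the sexes and 0.376 or more elsewhere. Of 1008 log2 differences of single genes 971 kept their direction and 37 turned. The cause was not tested. Over all genes edgeR called 0 except between the sexes. DESeq2 called 187 in R47H-TREM2 females, 13 for the R47H effect minus the WT effect, 3 in R47H-TREM2 males, 2 between the control groups and 1 for the difference between the sexes. Between the sexes edgeR called 0.0558% of genes, limma-voom 0.118% and DESeq2 0.627%, and edgeR 0.807% without R47H-TREM2 female 2 and 0.242% without control male 1. Without control male 1 edgeR called 48 genes in R47H-TREM2 males, and without R47H-TREM2 female 4 it called 7 in females.

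Without the libraries high in Prl, Omp or Adora2a, the differences of LG72 from LG73 controls turned to 0.41 for Cyp51, 0.39 for Hmgcs1, 0.46 for Insig1, 0.34 for Sqle and 0.40 for the median (1 library of LG72 left, against 2), Dhcr7 between the sexes to −0.048 and Idi1 in WT-TREM2 females to −0.15. With limma-voom Cyp51, Insig1 and the median turned to 0.0080, 0.086 and 0.047 between the control groups, and with the Alb covariate Lss to −0.010. Dhcr7 turned to −0.0078 in R47H-TREM2 males with the size factors and with the Wald test of DESeq2.

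Leaving out single libraries gave, between the control groups, −0.36 to 0.12 for Cyp51, −0.46 to 0.10 for Dhcr7, −0.41 to 0.23 for Hmgcs1, −0.41 to 0.13 for Insig1, −0.051 to 0.18 for Lss, −0.51 to 0.17 for Sqle and −0.36 to 0.15 for the median. For the R47H effect minus the WT effect it gave −0.37 to 0.11 for Cyp51, −0.46 to 0.11 for Dhcr7, −0.54 to 0.10 for Hmgcs1, −0.34 to 0.25 for Insig1, −0.49 to 0.18 for Sqle and −0.42 to 0.056 for the median. Dhcr7 between the sexes ran from −0.077 to 0.20, Idi1 in R47H-TREM2 females from −0.46 to 0.053, and in R47H-TREM2 males Dhcr7 from −0.19 to 0.25, Fdft1 from −0.0051 to 0.60 and Sqle from −0.0053 to 0.68.

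The few controls limit what could be detected. For Idi1, the gene with the widest intervals, the 95% interval ran from −0.84 to 0.58 in R47H-TREM2 females and from −0.24 to 1.47 in males. No paired analysis was possible because replicate numbers only name libraries in accession order.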

Other observations

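Enzymes of the pathway outside the 8 also stood lower in males than in females of LG72. All 14 had a log2 difference below 0 (median −0.24), also with size factors of DESeq2, and 0 passed. Of all genes 52.2% were lower in males and 0.0558% were called in edgeR. Acat2 was at −0.36 (SE 0.15, edgeR adjusted p = 0.390), Sc5d, a late desaturase of the sterol ring, at −0.27 (SE 0.13, edgeR adjusted p = 0.418) and Msmo1 at −0.39 (SE 0.20, edgeR adjusted p = 0.456). In the R47H effect of females minus that of males, 12 of the 14 were negative (median −0.54, 0 called), as were 51.4% of all genes. Fdps, which makes farnesyl diphosphate, stood at −1.03 (SE 0.36, edgeR adjusted p = 0.698) and Mvd at −1.13 (SE 0.51, edgeR adjusted p = 0.896).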
